A study of Homo sapiens with 2 samples.

Results

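The genes described here encode feedback inhibitors of MAP kinase signalling: the dual-specificity phosphatases DUSP1, DUSP2, DUSP4, DUSP5, DUSP6 and DUSP10, the Sprouty proteins SPRY1 and SPRY2, and the Sprouty-related proteins SPRED1 and SPRED2. They were chosen by gene symbol, as all probes that the platform annotation gives to 1 of these 10 symbols, which took 14 of 47322 probes and 10 of 20046 named genes. RNA came from cells labelled Jurkat, a line from a human T cell leukaemia, kept in serum-supplemented RPMI. The treated group had Me6TREN, a branched polyamine that chelates metal ions, for 24 hours at a dose the labels do not state, and the control group had phosphate-buffered saline for the same time. Each group was 1 sample on 1 Illumina HT12 array. The values therefore carry no standard deviation and no test, and each ratio compares a single pair of arrays.

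MAP kinases pass signals from growth factors, antigen receptors and stress to the nucleus. The ERK branch runs through RAS, RAF and MEK, and the JNK and p38 branches respond mainly to stress and cytokines. The DUSP proteins of this group remove the activating phosphates from the kinases themselves, whereas Sprouty and SPRED proteins act farther upstream on RAS and RAF. Many of these inhibitors are transcribed in response to the kinases they restrain, which closes a negative feedback loop.

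The phosphatase genes DUSP1, DUSP10 and DUSP2 were 12.2-fold, 4.88-fold and 3.92-fold higher with Me6TREN. SPRED1 was 4.42-fold lower. SPRED2, not detected with Me6TREN, was at least 3.13-fold lower as reported but short of 2-fold without background correction. DUSP5 differed by less than 2-fold, and DUSP4, DUSP6, SPRY1 and SPRY2 were not detected on either array.

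The sequences before the transcript starts of the 5 genes past 2-fold are shown because they lie directly before the genes that differed. Each line gives the 250 bases before a RefSeq transcript start of assembly GRCh38.p14, read 5′ to 3′ on the strand of the gene, and capitals mark a match to TGACGTCA, the cAMP response element, or to CACGTG, the E box. For DUSP10 and SPRED2, which have 2 starts in that table, the line is for the start farther upstream. Which start these cells used was not measured.
DUSP1 promoter (chr5:172771196-172771445, minus strand): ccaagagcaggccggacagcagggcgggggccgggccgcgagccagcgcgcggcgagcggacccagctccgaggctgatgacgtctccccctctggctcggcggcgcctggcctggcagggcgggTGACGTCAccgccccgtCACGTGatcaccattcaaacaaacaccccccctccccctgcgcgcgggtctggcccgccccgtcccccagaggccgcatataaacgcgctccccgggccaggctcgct
DUSP2 promoter (chr2:96145441-96145690, minus strand): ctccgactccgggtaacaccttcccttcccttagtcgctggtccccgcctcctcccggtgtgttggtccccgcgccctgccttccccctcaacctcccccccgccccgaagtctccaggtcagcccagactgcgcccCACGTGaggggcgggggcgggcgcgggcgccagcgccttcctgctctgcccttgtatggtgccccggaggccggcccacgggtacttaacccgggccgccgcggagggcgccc
DUSP10 promoter (chr1:221742090-221742339, minus strand): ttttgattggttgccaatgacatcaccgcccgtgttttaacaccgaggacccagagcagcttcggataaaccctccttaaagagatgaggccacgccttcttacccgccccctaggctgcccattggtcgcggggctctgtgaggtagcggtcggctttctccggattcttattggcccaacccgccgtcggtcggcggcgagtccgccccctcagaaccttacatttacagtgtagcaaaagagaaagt
SPRED1 promoter (chr15:38252586-38252835, plus strand): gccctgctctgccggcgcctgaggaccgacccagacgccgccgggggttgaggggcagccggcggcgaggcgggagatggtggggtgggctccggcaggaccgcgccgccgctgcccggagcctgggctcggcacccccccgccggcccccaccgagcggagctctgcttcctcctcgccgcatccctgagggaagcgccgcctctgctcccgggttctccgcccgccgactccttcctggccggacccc
SPRED2 promoter (chr2:65432600-65432849, minus strand): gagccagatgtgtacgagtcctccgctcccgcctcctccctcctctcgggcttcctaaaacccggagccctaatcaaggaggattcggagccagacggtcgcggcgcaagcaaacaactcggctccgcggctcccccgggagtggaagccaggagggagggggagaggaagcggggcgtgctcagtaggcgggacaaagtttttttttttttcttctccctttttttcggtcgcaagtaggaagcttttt

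Promoter windows of 250 bases before to 50 bases after the start were searched on both strands for 5 motifs, and the share holding each was taken over all 35116 windows in the RefSeq table. The cAMP response element TGACGTCA was in 1.85% of all windows and the E box in 7.26%. An AP-1 site, spelled TGANTCA, was in 7.71% of them. A heat shock element core, spelled GAANNTTC, was in 6.77%. An ETS site, spelled CCGGAAGT, was in 4.14%. The DUSP1 window held the cAMP response element 125 bases before the start and the E box 108 bases before it. Both motifs stood together in 57 windows (0.162%). This was the only pair counted and is the pair in the DUSP1 window, so its share is a description and no test. Any of the 5 motifs was found in 25.1% of all windows. The DUSP2 window held the E box 113 bases before the start. Neither of the 2 DUSP10 windows nor the SPRED1 window held any of the 5 motifs, nor did the upstream SPRED2 window. The other SPRED2 window matched the AP-1 spelling 6 bases before its start, running across the start, as TGACTCA. It matched once more 35 bases after the start, as TGAATCA, since the N of the spelling accepts any base. The bases before the start were rich in G and C at DUSP1 (74.4%), DUSP2 (74.0%) and SPRED1 (78.4%), against a median of 58.0% over all windows. The share was 56.4% before the upstream start of DUSP10 and 55.2% before its other start, and 58.8% and 39.2% at SPRED2. These matches describe the letters alone, and binding was not measured.

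Of the 14 probes, 5 were detected on both arrays, 1 on the control array alone and 8 on neither. Detection required a p-value under 0.01, which ranks a probe among the negative controls of its array. The lowest signal that met this was 333.4 for the control and 350.5 for Me6TREN. Signals are mean bead intensities as deposited, with the background in them, and between 17 and 30 beads stood behind each value. Log2 levels and ratios are after background correction and quantile normalization, and each ratio is Me6TREN over control.

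**Figure D1:**
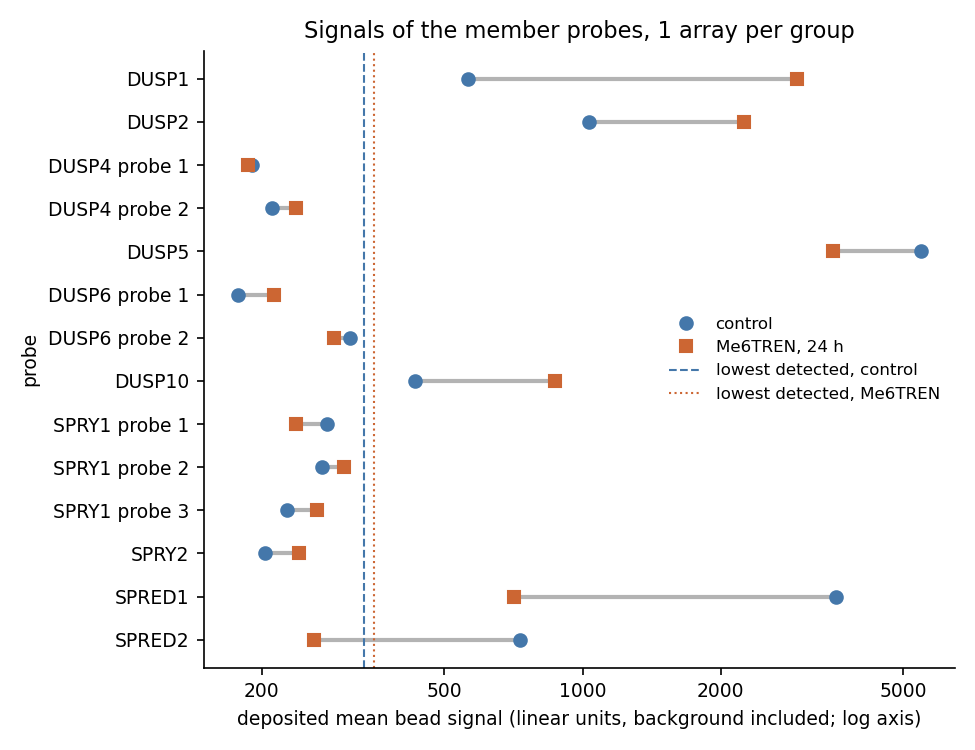
Deposited mean bead signal (log axis) of each of the 14 probes on the control array (circles) and the Me6TREN array (squares), with the lowest detected signal of each array as a vertical line. DUSP1, DUSP2 and DUSP10 lie to the right with Me6TREN, DUSP5, SPRED1 and SPRED2 to the left, and the 8 probes of DUSP4, DUSP6, SPRY1 and SPRY2 lie left of both lines.

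DUSP1, also called MKP-1, is a nuclear phosphatase of JNK, p38 and ERK and a classical stress-induced early gene. Its single probe had a signal of 561.7 in the control and 2930.9 with Me6TREN, a 5.22-fold ratio before any correction. The normalized log2 level was 8.10 in the control and 11.70 with Me6TREN, a log2 ratio of 3.61. The Me6TREN array was the high one, and DUSP1 ranked 22 from the top among 9410 measured genes. In RNA from bulk samples, more RNA per cell and more cells that express a gene cannot be told apart.

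DUSP10, or MKP-5, acts on JNK and p38 rather than ERK. Its probe had signals of 431.8 and 872.5, and the log2 level was 7.42 in the control and 9.71 with Me6TREN (log2 ratio 2.29, rank 76 from the top). The control signal lay near that array's detection limit of 333.4. The signal as deposited was 2.02-fold higher, and without background correction the log2 ratio was 1.40.

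DUSP2, known as PAC-1, is a nuclear phosphatase that activated lymphocytes induce. The control signal was 1033.2 and the Me6TREN signal 2245.8. Log2 levels of 9.34 and 11.31 gave a log2 ratio of 1.97 and rank 131 from the top.

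DUSP5 is a nuclear phosphatase specific to ERK. Its deposited signal was 5454.2 in the control and 3517.6 with Me6TREN, 0.645 times the control, whereas the normalized log2 levels of 12.15 and 11.94 differed by −0.20. The ratio ranged from −0.63 to 0.06 over the alternatives and turned its sign with median centring over detected probes. DUSP5 was not past 2-fold under any setting, and no direction is given for it.

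DUSP4, a nuclear phosphatase of ERK and JNK, and DUSP6, a cytoplasmic phosphatase specific to ERK, were at background. The 2 probes of DUSP4 had control signals of 190.8 and 210.2 and Me6TREN signals of 186.9 and 237.2. Those of DUSP6 had control signals of 177.7 and 310.7 and Me6TREN signals of 212.6 and 287.7, and the brighter of them reached a detection p-value of 0.026 on the control array, between the threshold of 0.01 and its alternative of 0.05. These probes give no fold, since neither array measured the genes above background.

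SPRED1 and SPRED2 bring neurofibromin to the membrane, where it switches RAS off. SPRED1 had a signal of 3565.0 in the control and 709.1 with Me6TREN. The log2 level was 11.43 in the control and 9.29 with Me6TREN, a log2 ratio of −2.14 that ranked 75 from the bottom of 9410 genes. SPRED2 had a signal of 731.4 in the control and 260.5 with Me6TREN, where its detection p-value was 0.453. It was therefore measured on the control array alone, and against the lowest detected level of the Me6TREN array its log2 ratio was at most −1.64. The uncorrected ratio of both probes was below 1 (0.199 for SPRED1 and 0.356 for SPRED2).

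SPRY1 and SPRY2, which block growth factor signals on their way to RAS, were not detected. The 3 probes of SPRY1 had control signals of 227.1, 270.4 and 277.2 and Me6TREN signals of 264.5, 302.3 and 237.9 in the same order, and the probe of SPRY2 had 203.3 and 241.2. Among the 8 undetected probes of the 4 genes, the signal was higher with Me6TREN for 5 and lower for 3, which gives no common direction. The median deposited signal over all probes was itself 272.1 for the control and 283.1 for Me6TREN.

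Of the 6 genes measured on at least 1 array, 3 were higher and 2 lower by 2-fold or more, and their median log2 ratio was 0.88. For comparison, 634 of all 9410 measured genes (6.74%) passed 2-fold upward and 935 (9.94%) downward, with a median log2 ratio of −0.02. A gene detected on 1 array alone passes this filter through the array where it is high, which holds for SPRED2 here, so the counts describe the measured genes and not all 10. The feedback genes were also chosen with earlier results of these data known, so setting their counts beside all genes is a description and no test. Measured were 46.9% of the 20046 named genes. The share of genes past 2-fold differed with signal, from 1.06% higher and 0.319% lower in the dimmest decile of genes by mean signal to 12.6% and 16.4% in decile 3 and 1.49% and 3.40% in the brightest. Mean log2 levels in the dimmest decile were 6.87 at most, below the lowest detected level of 7.02 on the Me6TREN array. Its genes enter largely as bounds, which are held towards 0, so its low shares follow in part from that rule. In the tenth of genes by mean signal that holds DUSP10, 10.1% were at least 2-fold higher, against 7.55% in that of DUSP1 and 5.95% in that of DUSP2 and SPRED1. In the tenth that holds SPRED2, 12.4% were at least 2-fold lower, against 10.3% in that of SPRED1.

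**Figure D2:**
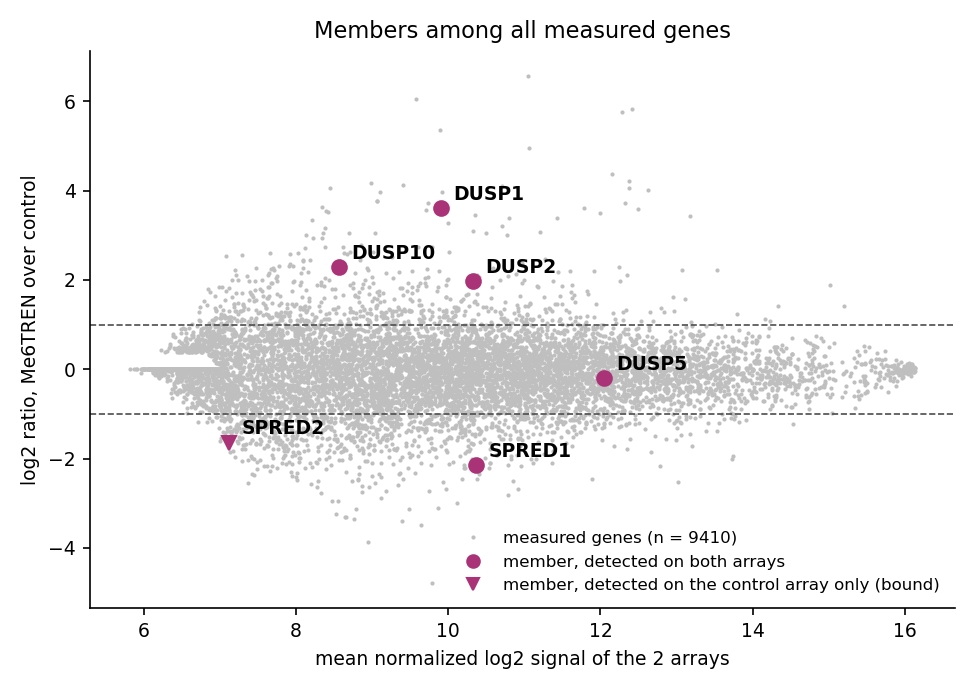
Log2 ratio of Me6TREN over control against the mean normalized log2 signal of both arrays for the 9410 measured genes (grey), with the 6 measured feedback genes in purple and dashed lines at 2-fold. DUSP1, DUSP10 and DUSP2 lie above the upper line at 3.61, 2.29 and 1.97, DUSP5 lies between the lines at −0.20, and SPRED1 (−2.14) and SPRED2 (a bound of −1.64, triangle) lie below the lower one.

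The split of all genes between higher and lower depended on the scaling between arrays. Of the genes past 2-fold after quantile normalization, 40.4% lay on the higher side. That share was 55.3% with median centring over detected probes (median log2 ratio of all genes 0.03), 10.8% with the authors' processed intensities (−0.43) and 8.23% with median centring over all probes (−0.51). Under these 3 scalings the log2 ratio of DUSP1 was 3.73, 3.20 and 3.04, that of DUSP10 2.34, 1.83 and 1.65, and that of DUSP2 2.04, 1.47 and 1.35. SPRED1 was at −2.10, −2.73 and −2.79 and SPRED2 at bounds of −1.47, −2.23 and −2.16. DUSP1, DUSP2, DUSP10 and SPRED1 stayed past 2-fold in their direction under all 10 alternatives, whereas SPRED2 was at −0.82, short of 2-fold, without background correction, where DUSP1 was at 2.82.

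**Figure D3:**
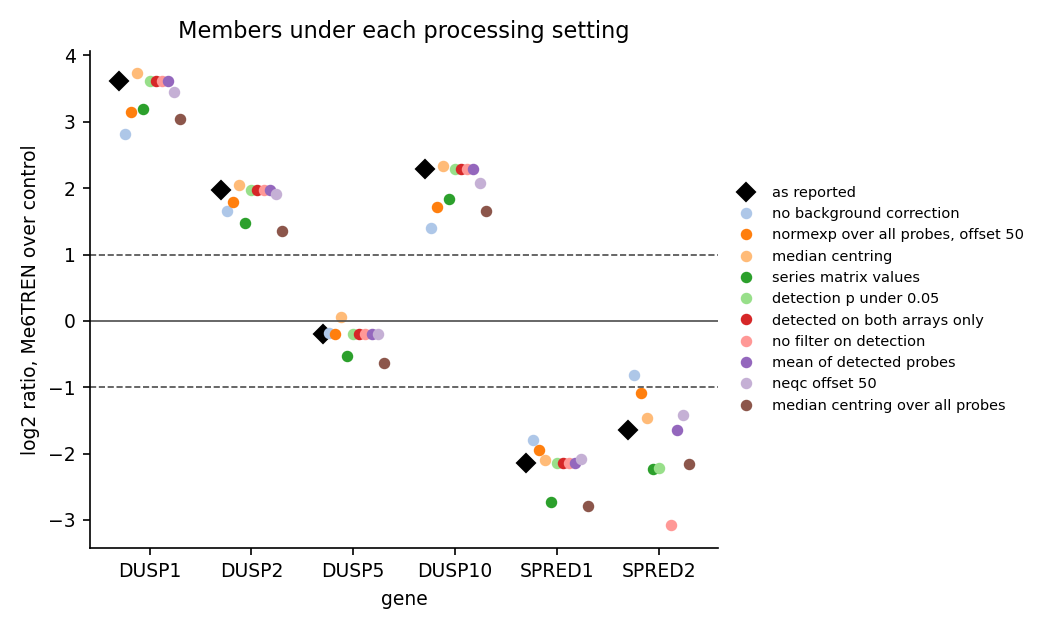
Log2 ratio of Me6TREN over control of the 6 measured feedback genes as reported (diamonds) and under 10 alternative settings (circles, 1 colour each), with dashed lines at 2-fold. DUSP1 ran from 2.82 to 3.73, DUSP10 from 1.40 to 2.34, DUSP2 from 1.35 to 2.04 and SPRED1 from −2.79 to −1.80, each on 1 side of its line, while DUSP5 crossed 0.

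Few other genes of these families were measured. Of the 7 remaining MAP kinase phosphatase, Sprouty and SPRED genes, DUSP7, DUSP8, DUSP9, DUSP16, SPRY3 and SPRED3 were detected on neither array. SPRY4, an inhibitor like SPRY1 and SPRY2, was detected on the Me6TREN array by 1 of its 4 probes, at a signal of 363.5 near the limit of 350.5, against 263.3 on the control array. Its log2 ratio was at least 0.59, short of 2-fold, and at least 1.01 at a detection threshold of 0.05. Among 14 atypical dual-specificity phosphatases with a probe, 10 were measured, and 0 passed 2-fold upward and 1 downward. These counts lie near the shares of all measured genes, 6.74% higher and 9.94% lower. The lower gene was STYX, a catalytically dead relative that binds ERK, at a log2 ratio of −1.79. Its other detected probe gave 0.90, so the probes disagree. DUSP12 was at −0.95, DUSP22 at 0.44 and DUSP11 at −0.35.

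The genes of the kinases that these inhibitors act on gave counts past 2-fold that lie near the shares of all measured genes, 6.74% higher and 9.94% lower, and so set neither list apart. In the list of the RAS, RAF, MEK and ERK core and RAS regulators, 15 of 21 genes with a probe were measured, and 1 passed 2-fold upward and 0 downward (median log2 ratio 0.11, highest 1.06 and lowest −0.63). The higher gene was RRAS2, a RAS-related GTPase, with signals of 1973.8 and 2595.5, a log2 ratio of 1.06 and 0.96 by its other detected probe. It fell short of 2-fold without background correction (0.95), with the authors' processed intensities (0.58) and with median centring over all probes (0.47), and with normexp too the list held 0 genes past 2-fold upward. RASGRP3 and RASGRP1, which load RAS with GTP in lymphocytes, were at −0.63 and −0.60, and the RAF kinase ARAF was at 0.40, but at −0.24 at the lowest over the alternatives. MAP2K1 and MAP2K2, the MEK kinases, were at 0.11 and 0.30 and MAPK3, an ERK, at 0.21, genes named after their values were seen. The median of this list turned to −0.25 with the authors' processed intensities and to −0.35 with median centring over all probes.

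In the list of JNK and p38 kinases, 15 of 19 genes with a probe were measured, and 0 passed 2-fold upward and 2 downward (median log2 ratio −0.16). MAP2K4, which activates JNK and p38, was 2.33-fold lower, at a log2 ratio of −1.22 and −1.26 by its other detected probe. MAP3K11, a mixed-lineage kinase upstream of JNK, was at least 2.12-fold lower and was not detected with Me6TREN. MAP3K7, the kinase TAK1, and MAP3K8 were at −0.92 and −0.89, the former at −1.97 by its other detected probe. Among the kinases that MAP kinases switch on, 9 of 10 were measured, 0 passed 2-fold upward, and MKNK1 was the 1 gene that passed it downward, 2.11-fold lower (median log2 ratio −0.47), with RPS6KA4 at −0.93, MAPKAPK3 at −0.81 and MAPKAPK5 at −0.54. The counts of lower genes in both lists depended on the setting, from 0 to 6 among the JNK and p38 kinases and from 0 to 5 among the kinases downstream, the highest with the scalings that put the median of all genes below 0. Without background correction MAP2K4 was at −0.80, MAP3K11 at −0.49 and MKNK1 at −0.53.

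The list of ERK-responsive transcripts held 21 genes with a probe, of which 14 were measured. Of these, 6 passed 2-fold upward and 3 downward (median log2 ratio 0.69), beside 6.74% and 9.94% of all measured genes. Genes detected with Me6TREN alone, JUN and PHLDA1 among them, passed the filter through the array where they were high. Over the 11 genes detected on both arrays, 4 passed upward and 3 downward, beside 6.85% and 9.45% of all genes so detected. JUN and FOS, subunits of AP-1, were higher. JUN was not detected in the control, with signals of 317.5 and 5957.4, and its ratio was at least 66.0-fold as reported but 20.7-fold without background correction. FOS had signals of 419.2 and 2494.6 and was 17.5-fold higher, or 7.78-fold without background correction. The ETS factor ELK4 was 6.93-fold higher by the 1 of its 5 probes that was detected. PHLDA1, not detected in the control, had a log2 ratio of at least 2.59 as reported. Its other probe, with signals of 292.4 and 298.0, was detected on neither array. Without background correction ELK4 was at 1.83 and PHLDA1 at 1.33. The other 5 past 2-fold, named after their values were seen, were FOSB (log2 ratio 1.87) and JUNB (1.10), which were higher, and EGR1 (2.69-fold), SRF (2.46-fold) and MYC (2.10-fold), which were lower. EGR1 is a textbook early target of ERK and SRF is the factor that binds the promoters of many early genes, and both had the opposite sign to FOS. SRF and the ETS factor ELK4 are listed together with transcripts that ERK induces, so the counts are of a mixed list. The signal of EGR1 was 886.7 in the control and 395.8 with Me6TREN, and that of SRF 8726.4 and 2731.8. EGR1 was at −0.83, short of 2-fold, without background correction. MYC was at −0.52 by its other detected probe, and it fell short of 2-fold with median centring over detected probes (−0.72) and with the mean of detected probes (−0.79). JUNB was at 0.41 at the lowest over the alternatives, and the list's median turned to −0.11 over genes detected on both arrays. These lists were put together with earlier results of these arrays known, so their counts are a description.

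**Figure D4:**
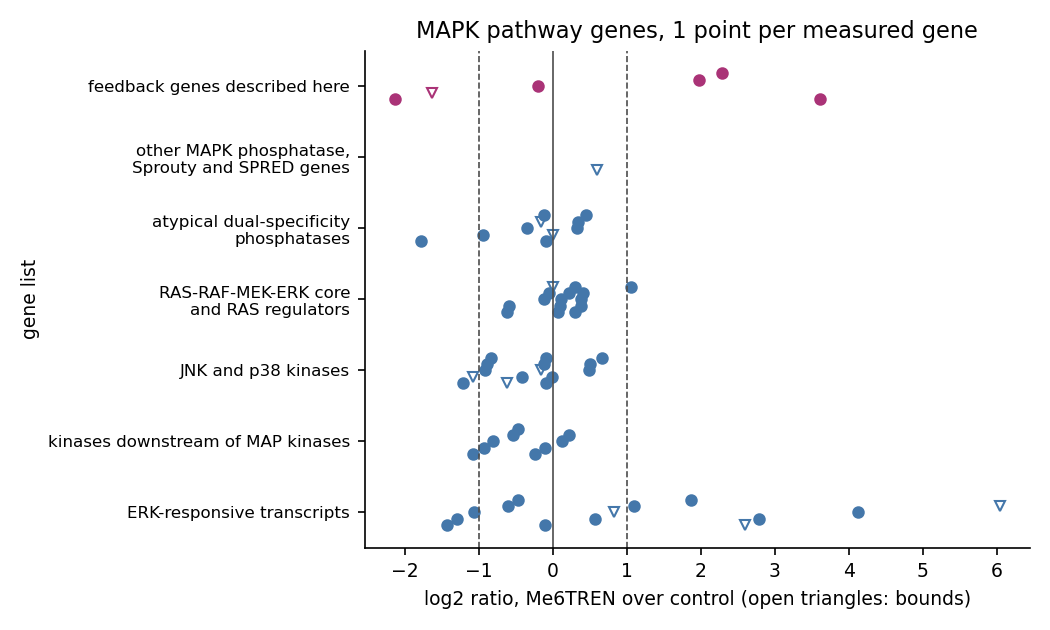
Log2 ratio of Me6TREN over control of each measured gene in 7 lists of MAP kinase pathway genes (filled points, detected on both arrays; open triangles, bounds), with dashed lines at 2-fold. The feedback genes (purple) run from −2.14 to 3.61 and the ERK-responsive transcripts from −1.43 to 6.04, while the RAS, RAF, MEK and ERK core runs from −0.63 to 1.06.

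The cell label was checked against marker genes. Of 10 T cell markers, 6 were detected on at least 1 array and CD247 alone on both, and CD3E, LCK, CD5 and CD7 were detected on neither. CD3G and LAT were detected in the control only, at signals of 348.0 and 336.3 near the limit of 333.4, each with a bound of 0. CD3D, which belongs to the antigen receptor of T cells, was detected on the control array alone, with a signal of 587.4 against 250.3 with Me6TREN, and 556.3 against 193.0 by another of its probes. It was at least 2.26-fold lower (log2 ratio at most −1.18), but at −0.54 without background correction and −0.99 with median centring over detected probes. ZAP70 and CD2, detected with Me6TREN alone, had log2 ratios of at least 0.75 and 0.43. Their Me6TREN signals of 374.3 and 353.3 lay near the limit of 350.5, and the other probes of ZAP70 were detected on neither array. CD247 was at −0.30. Of the B cell markers, 5 had a probe. Of these, 4 were detected on each array (MS4A1 at a log2 ratio of 0.45, BLK at −0.27, CD79B at −0.26 and CD79A at −0.03), and PAX5 on neither. By their brightest probes, CD79B had signals of 45068.6 in the control and 42799.6 with Me6TREN, and CD79A 32313.3 and 33454.8. Both lay in the brightest decile of genes by mean signal. MS4A1 (1139.9 and 998.0) and BLK (1912.0 and 1106.4) were dimmer. The labelled T cell origin is therefore not borne out by its defining markers, and the cells are called by their label only. Of 5 myeloid marker genes, 1 was detected in the control (CD68) and 3 with Me6TREN (CD68, CD14 and LYZ). The log2 ratios or bounds of these genes ran from 0.38 to 0.73, and CSF1R and ITGAM were detected on neither array. CD14 and LYZ had Me6TREN signals of 370 and 350.9, near the limit of 350.5, and control signals of 312.5 and 293. The other probe of each was detected on neither array, at log2 ratios of −0.11 and −0.27. Among all genes, 9084 were detected in the control and 8160 with Me6TREN. The 1 erythroid marker detected, HBB, was at −0.11. The part of these markers in the ratios of the feedback genes was not tested. Among 6 reference genes the median log2 ratio was −0.15, with TBP at −0.82, PPIA at −0.32, HPRT1 at −0.19 and GAPDH at −0.11, the latter pair with a positive sign after median centring over detected probes and GAPDH also with the authors' processed intensities (0.09).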

How the data were processed

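The authors deposited a table of mean bead signal per probe, a linear intensity that per the file headers was not normalized, with the detection p-value (steps of 1 in 770) and bead number of each array, and a series matrix of processed intensity. Each series matrix column was the signal times a factor (0.951 control, 1.05 Me6TREN) plus a constant (−228.0 and −269.5), to within 0.0131. Its scale is linear and rises with the signal, with no centring on genes, and its medians were 30.9 and 28.8. How the authors chose factor and constant is not given in the sources used here. RNA, per the labels' protocols, was extracted with Trizol and labelled with the Ambion MessageAmp kit.

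Signals were processed with limma 3.58.1 (R 4.3.3) by neqc, with an offset of 16, over all 47322 probes. Quantile normalization gives both arrays 1 distribution of signals, so it removes array-wide differences. Detected were 15363 probes (32.5%) on the control array and 13656 (28.9%) on the other, and the median number of beads was 22 on both. The number of arrays limits the precision. A gene was its brightest probe among those detected, and a gene detected on 1 array had its ratio bounded by the higher of the other array's lowest detected level and its own. Symbols came from GEO's platform annotation (1 symbol for 30113 probes, several for 8, none used for the other probes), of which 30074 matched the RefSeq table of GRCh38.p14 and 0 needed an update. Promoters of 8 of the 10 genes, in 13 windows, were in the RefSeq table.

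No test was possible between single arrays, and genes were counted at 2-fold. Simulated arrays for this comparison gave 12211 measured genes. Of genes simulated at log2 ratios of 2.0 and −2.0, 100.0% were counted, of those at 1.3 and −1.3, 86.0% and 84.0%, and of unchanged genes 0.45%. The noise of the simulation was set by choice, since single arrays give no estimate of it. Changed genes were drawn from brighter probes, and both simulated arrays had the same background and scale. Dim genes that change and differences in scale between arrays were therefore not checked. These shares check the processing and are not error rates of the real arrays. The feedback genes, lists and tests were chosen with earlier results of these data known. Named were all 10 feedback genes, the 7 related genes, the 4 largest ratios of each further list, JUN and FOS. Likeness of pattern was not computed, since 2 arrays give 1 ratio per gene. Processing was varied in 9 ways: without background correction, with normexp fitted to all probes (offset 50), with median centring (over probes detected on at least 1 array), with series matrix values floored at 99.9, at a detection threshold of 0.05, over genes detected on both arrays, without detection filter, with the mean of detected probes and with a neqc offset of 50. Median centring over all probes was added after seeing the data. Some genes of the lists were not analysed here.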

Additional observations from a re-analysis of the deposited data

How the results depend on the processing

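The count of 3 feedback genes at least 2-fold higher was the same under all 9 alternatives and the added one. The count of those at least 2-fold lower was 2, and 1 without background correction, where SPRED2 fell short, and 1 over genes detected on both arrays, which leaves SPRED2 out. The median log2 ratio of the measured genes, 0.88 as reported, was 1.05 with median centring, 0.00 at a detection threshold of 0.05 (which adds DUSP6 at a bound of 0.00), 1.97 over genes detected on both arrays and 0.18 with no filter on detection. It rests on 5 to 10 genes that differ in sign, so it moves with which genes are measured. Of 59 single values of the feedback genes under the alternatives, 49 kept their sign and side of 2-fold within 1.5-fold of the reported value and 10 did not, and 0 of the genes past 2-fold changed sign. For the 42 other named genes, 328 of 411 values kept their sign and side of 2-fold within the same range, 83 did not, and 0 of the genes past 2-fold changed sign. Among all genes, 634 higher and 935 lower became 297 and 443 without background correction, 397 and 616 with normexp, 950 and 769 after median centring, 283 and 2332 in the series matrix, and 231 and 2576 with centring over all probes. The causes were not tested. No paired analysis was possible because each group has 1 array, and for the same reason no replicate could be left out. Signals near the lowest detected level limit what can be said of DUSP6, DUSP10, SPRED2 and SPRY4.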
